A study of Mus musculus with 12 samples.

Results

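Livers of untreated Atp7b-/- mice were compared with livers of wild type mice, gene by gene, on Affymetrix GeneChip mouse arrays, which read each transcript with sets of short probes. The comparison uses 8 of the 12 arrays of the series, 4 of wild type liver and 4 of Atp7b-/- liver. They were chosen by the genotype in their labels and by the absence of zinc treatment. The mice of both groups were C57Bl/6, 3 months old, and neither group received an agent. The sources used here do not give how the allele was made, the sex of the mice or whether each array came from a separate animal. Each p-value thus rests on the spread between arrays, part of it possibly technical. The other 4 arrays, Atp7b-/- mice given supplemental zinc, entered the fit to estimate the spread and are not described. Levels are deposited log2 intensities, and each of 18193 genes was read from 1 probe set, the one with the highest mean over the 12 arrays.

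Atp7b is a copper pump of the hepatocyte. It loads copper onto ceruloplasmin in the secretory pathway and moves excess copper towards the bile, and its loss in people causes Wilson disease, in which copper builds up in liver and brain. The mouse mutant is known for early copper overload of the liver, and rises of p53 targets, cell cycle genes and metallothioneins are well described in it. Those 3 groups serve here as a reference, and the account covers the other functions of the liver.

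Signal for Atp7b itself was 8.51, 8.59, 8.61 and 8.69 log2 units in the wild type arrays and 7.17, 7.25, 7.11 and 6.91 in the Atp7b-/- arrays. The 4 mutant arrays lay below the 4 wild type arrays, a difference of -1.49 ± 0.10 (SE; adjusted p = 2.04e-07, limma), or -0.91 averaged over the gene's 3 probe sets. Whether the probes lie in the disrupted stretch is not known here. The hepatocyte label was checked with albumin (Alb), the main secreted product of hepatocytes, which read 14.98 to 15.02 in wild type and differed by 0.00 in Atp7b-/-. These values lie near the top of the arrays' range, where a difference could be hidden. The 11 measured hepatocyte markers differed by -0.13 to 1.28. The array of Atp7b-/- replicate 1 stood somewhat apart, with a median r of 0.991 to the other mutant arrays where those had 0.996. The 3' minus 5' difference of the control probe sets, a sign of RNA quality, was 0.617 to 0.784 in wild type and 0.792 to 0.881 in Atp7b-/-, so that each mutant array lay above each wild type array. Its part in the differences was not tested.

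Of 18193 genes, 4480 were called changed at an adjusted p under 0.05 (limma, 24.6 percent), of which 2608 rose (14.3 percent) and 1872 fell (10.3 percent). In 3759 of the called genes no mutant array fell within the wild type range or the reverse, which held for 26.4 percent of all genes. Most changes were small. Rises of at least 1 log2 unit were called for 551 genes and falls of that size for 104, and beyond 3 log2 units the counts were 56 and 4. The lead of rises over falls depended on how the arrays were scaled and on the probe sets used. When each gene's probe sets were averaged, 52.8 percent of the called genes were higher. With 1 probe set per gene, the share was 58.2 percent in the values as deposited and 49.6 percent after quantile normalization. It was 68.1 percent after centring each array on its median, and 44.8 and 36.2 percent when those steps used genes alone. The fall count was 1220 without Atp7b-/- replicate 4, where 3292 genes were called in all. The median difference over all genes was -0.05.

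Changed genes were spread unevenly over signal levels. Among the 4549 genes with the lowest mean signal, 1.82 percent rose and 6.33 percent fell. Among the 4548 genes with the highest signal, 23.3 percent rose and 10.5 percent fell. The 3 known groups are short lists, so their share of the calls is small whatever their members do. They hold 77 measured genes, of which 50 were called. The 4430 called genes outside the lists can include others tied to p53 or cell division, and these were not counted.

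**Figure D1:**
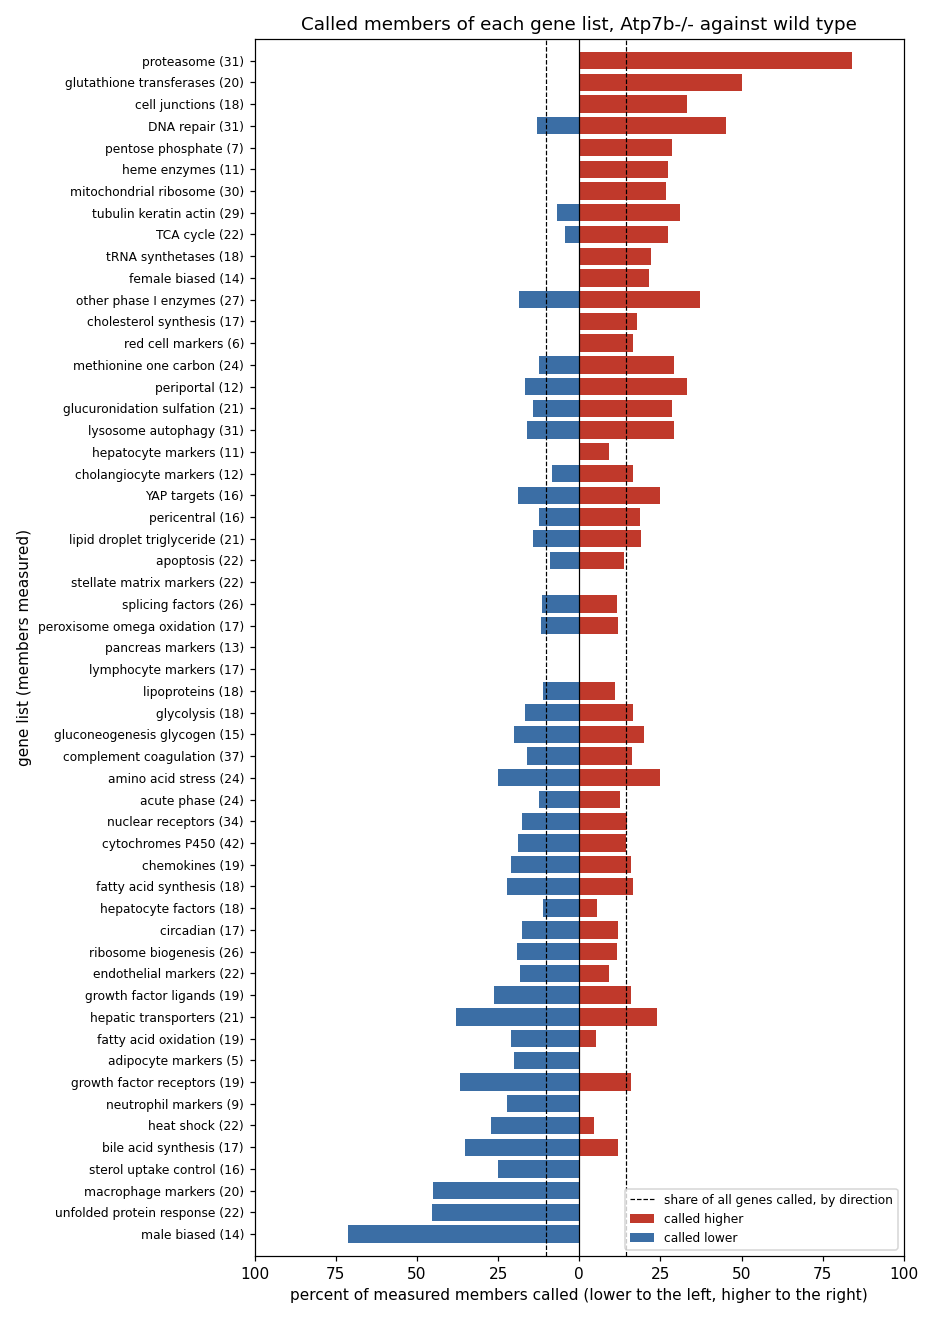
Share of measured members of each gene list that were called higher (right) or lower (left) in Atp7b-/- against wild type livers, in percent, with the shares over all genes drawn as dashed lines. Proteasome subunits stand far to the right with 26 of 31 higher, and unfolded protein response genes to the left with 10 of 22 lower.

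The proteasome, the protease that breaks down ubiquitin-tagged proteins, showed the widest shift of a complex. Of 31 measured subunits, 26 rose and 0 fell, with a median difference of 0.40 log2 units, and between 20 and 27 rose under the other settings, except that 0 rose with a minimum change of 0.5 log2 units built into the test. For 26 subunits every mutant array lay above every wild type array, which held for 14.3 percent of all genes. Averaged over the subunits, the 4 mutant arrays stood 0.30 to 0.50 log2 units above the wild type mean, while the wild type arrays lay between -0.06 and 0.05. The rises were small for each gene and were called in most of the complex.

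The rises covered the catalytic core and the regulatory cap. Psma1, a subunit of the outer rings of the catalytic core, read 10.93, 11.28, 11.08 and 11.26 in wild type and 12.02, 11.86, 11.75 and 11.90 in Atp7b-/-. Each mutant array was above each wild type array, and the difference was 0.74 ± 0.09 (SE; adjusted p = 7.11e-05, limma). Psma7, another ring subunit, rose by 0.76 (0.49 without probe sets of shared sequence), and Psmb4 of the inner rings by 0.61. The 3 subunits that carry the proteolytic sites differed alike: Psmb6 rose by 0.38, Psmb7 by 0.53 and Psmb5 by 0.40. In the regulatory cap, the ATPase Psmc4 rose by 0.72 (0.48 without probe sets of shared sequence), the deubiquitinase Psmd14 by 0.61 and the ubiquitin receptor Psmd4 by 0.45 (0.27 averaged over its probe sets).

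Psmd14 shows how tight the groups were, at 11.11, 11.04, 11.12 and 11.10 in wild type and 11.86, 11.54, 11.59 and 11.81 in Atp7b-/-. Replicates 1 and 4 of the mutant were the highest, and neither group reached the other. The 5 subunits that did not pass the test were Psmd8 at 0.01, Psma5 at 0.17, Psmd6 and Psmd12 at 0.21 each and Psmb2 at 0.24. Their adjusted p-values ran from 0.0579 for Psmd6 to 0.946 for Psmd8 (limma).

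**Figure D2:**
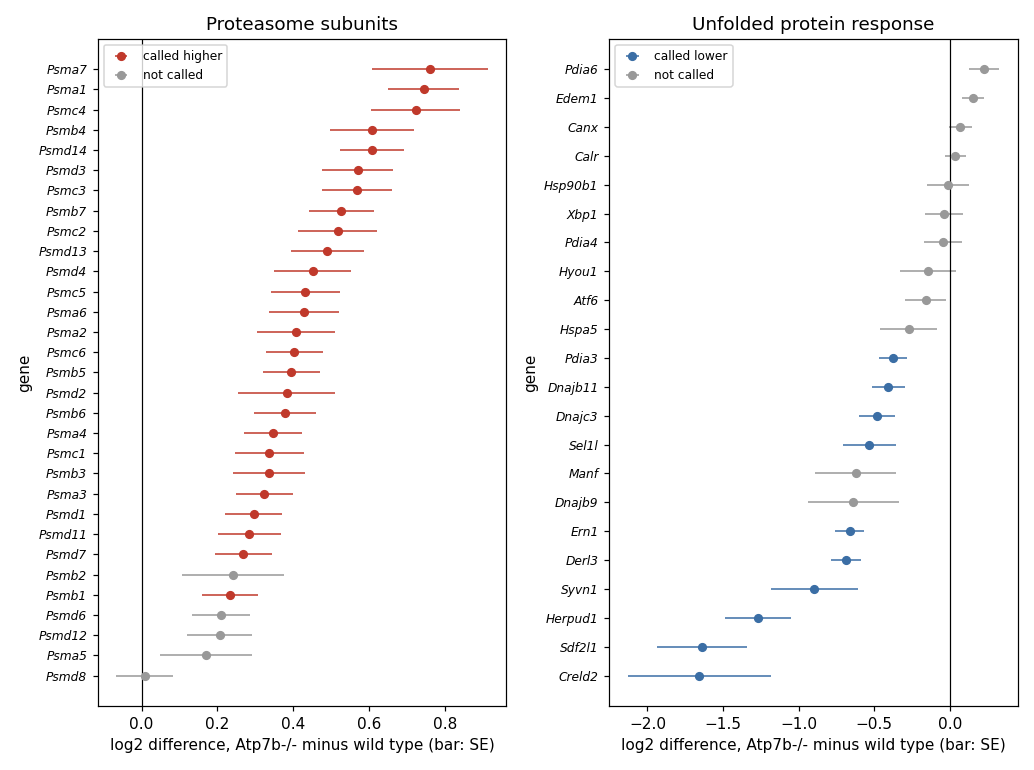
Log2 difference between Atp7b-/- and wild type livers for each measured proteasome subunit (left) and unfolded protein response gene (right), with the SE as bars, red and blue points for genes called higher and lower and grey points for the rest. The proteasome points lie between 0.01 and 0.76, and the unfolded protein response points between -1.66 and 0.23.

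Genes of the unfolded protein response moved the other way. The response is a set of chaperones, folding enzymes and degradation factors that cells make when proteins misfold in the endoplasmic reticulum. Of 22 measured genes, 10 fell and 0 rose, with a median difference of -0.39, and 7 to 11 fell under the other settings, except that 1 fell with the minimum change of 0.5. There was 1 rise without Atp7b-/- replicate 2. For 4 of the 22 genes the groups were fully apart, as they were for 26.4 percent of all genes. The mean of the list per array overlapped between groups. It ran from -0.26 to 0.27 in wild type and from -0.78 to -0.14 in Atp7b-/-.

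Sdf2l1, a partner of the chaperone Hspa5, read 10.45, 10.82, 10.61 and 9.74 in wild type and 8.53, 8.12, 9.69 and 8.72 in Atp7b-/-. It fell by 1.64 on the log2 scale (SE 0.30; adjusted p = 0.00132, limma), although replicate 3 of the mutant came close to replicate 4 of wild type. Herpud1, which helps move misfolded proteins out of the compartment for degradation, stood at 12.49, 13.16, 12.92 and 12.20 in wild type and at 11.82, 11.21, 11.37 and 11.30 in Atp7b-/-. The groups were apart and the difference was -1.27 ± 0.22 (SE; adjusted p = 0.000985, limma). Derl3, part of the same export channel, fell by 0.69 and Ern1, the sensor kinase and nuclease also known as IRE1, by 0.66 (0.33 averaged over its probe sets).

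Creld2, a secreted stress protein, was the most variable member, at 10.55, 11.62, 10.87 and 9.35 in wild type and 7.81, 8.57, 10.15 and 9.22 in Atp7b-/-. Its groups overlapped, and the fall of 1.66 (adjusted p = 0.0213, limma) was no longer called without Atp7b-/- replicates 1 or 2 or wild type replicates 2 or 3, where the difference was -1.57 to -1.28. The ubiquitin ligase Syvn1 fell by 0.90 (adjusted p = 0.0379, limma) and lost its call without Atp7b-/- replicates 1 or 2 or wild type replicates 1, 2 or 3, with differences of -0.98 to -0.62. It was not called in a fit of the 8 arrays alone (adjusted p = 0.075, limma), and with a trended, robust variance neither it nor Creld2 was (adjusted p = 0.0688 and 0.0567, limma). The co-chaperone Dnajc3 fell by 0.49, but the mean of its 5 probe sets, -0.31, did not pass the test (adjusted p = 0.124, limma).

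The chaperone Hspa5 read 13.51, 14.01, 13.88 and 13.52 in wild type and 12.78, 13.56, 13.83 and 13.65 in Atp7b-/-, a difference of -0.27 (adjusted p = 0.307, limma). The groups overlapped except for the low replicate 1 of the mutant. Hsp90b1 differed by -0.02, the lectin chaperones Calr and Canx by 0.04 and 0.07, the disulfide isomerase Pdia6 by 0.23 and the transcription factor Xbp1 by -0.04, and none of these passed the test. The mean of the probe sets of Pdia6 passed the test the other way, at -0.48 (adjusted p = 0.00696, limma).

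Many genes of this response carry the endoplasmic reticulum stress element in their promoter, a sequence bound by the factors that switch the response on. The letters CCAAT and CCACG, with 9 bases of any kind between them, were searched on both strands in the 250 bases before each gene's start, in RefSeq promoters of build GRCm38.p6. They occurred in 35 of 27025 genes (0.13 percent) and in 9 of the 19 response genes with a promoter entry (47.4 percent). As the element is known from genes of this response, these shares say nothing about the changes measured here. Of the 10 genes that fell, 4 hold the element (Creld2, Derl3, Dnajc3 and Syvn1), and of the 9 that were not called, 5 do (Hspa5, Hsp90b1, Pdia6, Calr and Canx). The windows show the element in both kinds of gene, so that genes with and without a fall can be read side by side. They lie at chr15:88819480-88819578 (+) for Creld2, chr10:75893202-75893300 (+) for Derl3, chr14:118937787-118937885 (+) for Dnajc3 and chr19:6046492-6046575 (+) for Syvn1. The genes that were not called are at chr2:34771985-34772083 (+) for Hspa5, chr10:86705493-86705591 (-) for Hsp90b1, chr12:17266451-17266549 (+) for Pdia6, chr8:84847035-84847133 (-) for Calr and chr11:50325760-50325858 (-) for Canx. Each is written 5′ to 3′ on the gene's strand, with the element in capitals, and Hsp90b1 is shown with 1 of its 2 matches. The element runs backwards, as CGTGG first, in Creld2, Derl3, Hsp90b1 and Calr.
Creld2: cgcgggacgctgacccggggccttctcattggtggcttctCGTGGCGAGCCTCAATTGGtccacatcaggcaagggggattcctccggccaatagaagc
Derl3: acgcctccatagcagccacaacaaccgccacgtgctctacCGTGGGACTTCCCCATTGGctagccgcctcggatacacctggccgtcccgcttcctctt
Dnajc3: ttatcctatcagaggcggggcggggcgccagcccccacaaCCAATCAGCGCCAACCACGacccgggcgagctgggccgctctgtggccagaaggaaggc
Syvn1: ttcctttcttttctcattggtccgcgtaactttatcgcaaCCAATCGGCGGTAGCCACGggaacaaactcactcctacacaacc
Hspa5: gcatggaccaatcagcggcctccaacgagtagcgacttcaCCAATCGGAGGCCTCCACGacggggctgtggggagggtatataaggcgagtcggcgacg
Hsp90b1: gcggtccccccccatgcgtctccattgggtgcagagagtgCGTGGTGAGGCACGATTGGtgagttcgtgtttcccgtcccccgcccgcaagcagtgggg
Pdia6: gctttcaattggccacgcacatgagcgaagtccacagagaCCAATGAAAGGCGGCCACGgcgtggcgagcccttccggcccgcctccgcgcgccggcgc
Calr: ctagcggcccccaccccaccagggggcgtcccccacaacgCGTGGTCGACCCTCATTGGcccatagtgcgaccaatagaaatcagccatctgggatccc
Canx: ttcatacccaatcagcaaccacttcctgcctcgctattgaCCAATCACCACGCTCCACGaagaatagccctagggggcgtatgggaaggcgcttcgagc

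The element was thus present in genes that fell and in genes that were not called. It was found in 0 of 25 proteasome genes with a promoter entry. The core of the antioxidant response element, TGACNNNGC was present in 4 of the 25 proteasome promoters (16.0 percent) and in 11.5 percent of all promoters. A match of letters is a description of the sequence and does not show that a factor binds there.

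Targets of amino acid and stress signalling split. Of 24 measured genes around the factor Atf4, which responds to amino acid shortage, 6 rose and 6 fell. Asns, which makes asparagine, read 8.48, 8.26, 8.74 and 8.07 in wild type and 11.29, 11.53, 11.58 and 11.39 in Atp7b-/-. Its arrays were more than 2 log2 units apart at the nearest, and it rose by 3.06 ± 0.14 (SE; adjusted p = 4.43e-09, limma), or 8.33-fold. Fgf21, a liver hormone of fasting and stress, went the other way, with 6.67, 7.05, 7.30 and 9.12 in wild type and 5.83, 5.44, 5.64 and 5.59 in Atp7b-/-. Wild type replicate 4 was far above its group, and the fall was 1.91 on the log2 scale (adjusted p = 0.00551, limma).

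Ddit3, the stress factor CHOP, stood at 8.37, 8.77, 8.29 and 7.73 in wild type and at 7.08, 6.98, 7.13 and 7.01 in Atp7b-/-. The groups were apart and it fell by 1.24 (adjusted p = 9.98e-05, limma). Ddit4, an inhibitor of mTORC1, rose by 1.43, the transcription factors Cebpb and Atf3 by 1.05 and 0.86, and Sesn2, a sensor of leucine, by 0.87. Atf4 itself differed by -0.62 with overlapping arrays (adjusted p = 0.0519, limma) and was called lower without Atp7b-/- replicate 3, at -0.83 (adjusted p = 0.00657, limma), and the mitochondrial folate enzyme Mthfd2 fell by 0.49.

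Cytosolic heat shock genes had 6 lower and 1 higher of 22 measured. The count of falls was 3 without Atp7b-/- replicates 1 or 2 and 2 without wild type replicates 2 or 3, where the rises numbered 2 without wild type replicate 2, and 3 to 9 fell over the scalings. The small heat shock protein Hspb1 had the largest fall, 1.30 (adjusted p = 0.000186, limma). It read 9.03, 8.36, 8.91 and 8.80 in wild type and 7.45, 7.55, 7.35 and 7.57 in Atp7b-/-. The co-chaperone Dnajb1 fell by 0.90 and the Hsp110 family member Hspa4l rose by 0.91. The constitutive chaperones Hspa8 and Hsp90aa1 differed by -0.01 and 0.03 and did not pass the test.

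Transcripts of enzymes that conjugate and oxidise drugs and toxins were rearranged, with those of glutathione transferases higher or not called. Of 20 measured glutathione transferases, which attach glutathione to reactive compounds, 10 rose and 0 fell, with a median difference of 0.32. Between 8 and 11 rose under the other settings, except that 4 rose with the minimum change of 0.5. Averaged over the list, the mutant arrays stood 0.48 to 0.74 above the wild type mean. For 11 of the 20 the groups were fully apart, as they were for 26.4 percent of all genes. The members are close relatives, and probes of one can bind the transcript of another.

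Gstm4 read 10.30, 9.91, 10.40 and 10.07 in wild type and 11.43, 11.42, 11.38 and 11.41 in Atp7b-/-. The 4 mutant arrays were almost equal and all above wild type, a rise of 1.24 ± 0.09 (SE; adjusted p = 6.83e-07, limma). Gstm3 and Gsta2 rose by 1.36 each and Mgst3, a membrane-bound member, by 1.65 (0.83 averaged over its probe sets). Mgst2 had 4.79, 4.65, 4.69 and 4.66 in wild type and 8.88, 5.93, 5.28 and 6.42 in Atp7b-/-, so that the rise of 1.93 became 1.18 without replicate 1 of the mutant and was not called with a trended, robust variance (adjusted p = 0.0506, limma). Gstm2 and Gsta3, with wild type means of 10.04 and 13.56, differed by -0.15 and -0.10 and did not pass the test.

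Of 27 other oxidising, reducing and hydrolysing enzymes, 10 rose and 5 fell. The carboxylesterase Ces2e was at 9.69, 9.79, 9.52 and 10.01 in wild type and at 11.86, 11.83, 11.85 and 11.67 in Atp7b-/-. All 4 mutant arrays lay above wild type, and the rise was 2.05 ± 0.15 (SE; adjusted p = 5.86e-07, limma). Nqo1, the quinone reductase, was at 6.24, 5.52, 6.23 and 6.63 in wild type and at 8.05, 7.58, 7.90 and 8.03 in Atp7b-/-, a rise of 1.73 with no overlap. The mitochondrial aldehyde dehydrogenase Aldh1b1 rose by 1.93.

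Relatives of these enzymes fell. The aldehyde oxidase Aox3 read 13.19, 13.32, 13.34 and 13.51 in wild type and 11.58, 11.59, 11.76 and 11.53 in Atp7b-/-, a fall of 1.73 (adjusted p = 6.99e-07, limma), while its relative Aox1 rose by 0.80. The groups of Aox3 were more than 1 log2 unit apart. The carboxylesterase Ces1d fell by 1.30, against the rise of Ces2e.

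Cytochrome P450 enzymes, the main oxidases of drugs, steroids and fatty acids, had 6 higher and 8 lower of 42 measured. Cyp2c29, an enzyme of drugs and arachidonic acid, stood at 13.69, 13.88, 13.67 and 13.77 in wild type and at 10.28, 12.58, 12.39 and 12.34 in Atp7b-/-. The mutant arrays were below wild type with replicate 1 far below the rest, and the fall was 1.86 (adjusted p = 0.00293, limma). Cyp2c23 fell by 1.08 and Cyp3a25 by 0.66. Cyp2g1 rose by 1.60 and Cyp2b10, a standard target of the receptor CAR, by 1.10, and Cyp2r1, which hydroxylates vitamin D, by 0.78. Cyp1a2, Cyp2e1 and Cyp3a11, large P450 genes of normal liver, differed by -0.13, -0.15 and -0.03 and did not pass the test.

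Among 21 genes of glucuronidation and sulfation, 6 rose and 3 fell. Sult1e1, the estrogen sulfotransferase, was near the lower quartile of the arrays in wild type, at 4.23, 4.27, 4.15 and 4.32, and read 9.35, 7.27, 7.22 and 7.41 in Atp7b-/-. Replicate 1 of the mutant was the highest, and the rise was 3.57 ± 0.51 (SE; adjusted p = 0.000229, limma). Sult1b1, which acts on thyroid hormones and phenols, rose by 1.38 and Ugdh, which makes the sugar donor of glucuronidation, by 1.03. Sult2a8, a bile acid sulfotransferase, fell by 0.97.

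Genes that make and move bile acids were called in both directions. Of 17 synthesis genes, 6 fell and 2 rose. Cyp7b1, of the alternative pathway, fell by 0.78, Slc27a2, a fatty acid transporter and acyl-CoA ligase, by 0.72, and the bile acid CoA ligase Slc27a5 by 0.30, while the side chain oxidase Acox2 rose by 0.49. Cyp7a1, the rate-limiting enzyme of the classic pathway, read 10.59, 10.33, 10.26 and 8.49 in wild type and 10.67, 11.42, 10.12 and 10.51 in Atp7b-/-. The groups overlapped and the difference of 0.76 did not pass the test (adjusted p = 0.253, limma). Cyp8b1 and Cyp27a1 differed by -0.12 and -0.25 and were not called.

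Of 21 transporters of bile acids, lipids and drugs, 8 fell and 5 rose. Slc10a1 (NTCP), the sodium-driven bile acid importer, was at 12.98 to 13.21 in wild type and at 10.90, 12.18, 12.12 and 11.89 in Atp7b-/-. It fell by 1.31 ± 0.22 (SE; adjusted p = 0.000719, limma), with replicate 1 lowest and no overlap. The organic anion importers Slco1a1 and Slco1a4 fell by 1.84 and 0.99 and Slc22a7 by 0.76. The bile salt export pump Abcb11 also fell, by 0.56.

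Abcb1b, a multidrug export pump, read 5.27, 5.27, 4.94 and 4.65 in wild type and 9.92, 5.34, 8.07 and 8.38 in Atp7b-/-. Replicate 2 of the mutant was just above wild type and the other 3 far above, so that the rise of 2.89 (adjusted p = 0.00641, limma) had an SE of 0.66, and the mean of the gene's probe sets rose by 1.59. Its relative Abcb1a rose by 0.98. The canalicular pumps Abcc2, for conjugates, and Abcb4, for phospholipid, rose by 0.65 and 0.53, opposite to Abcb11 in the same membrane.

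**Figure D3:**
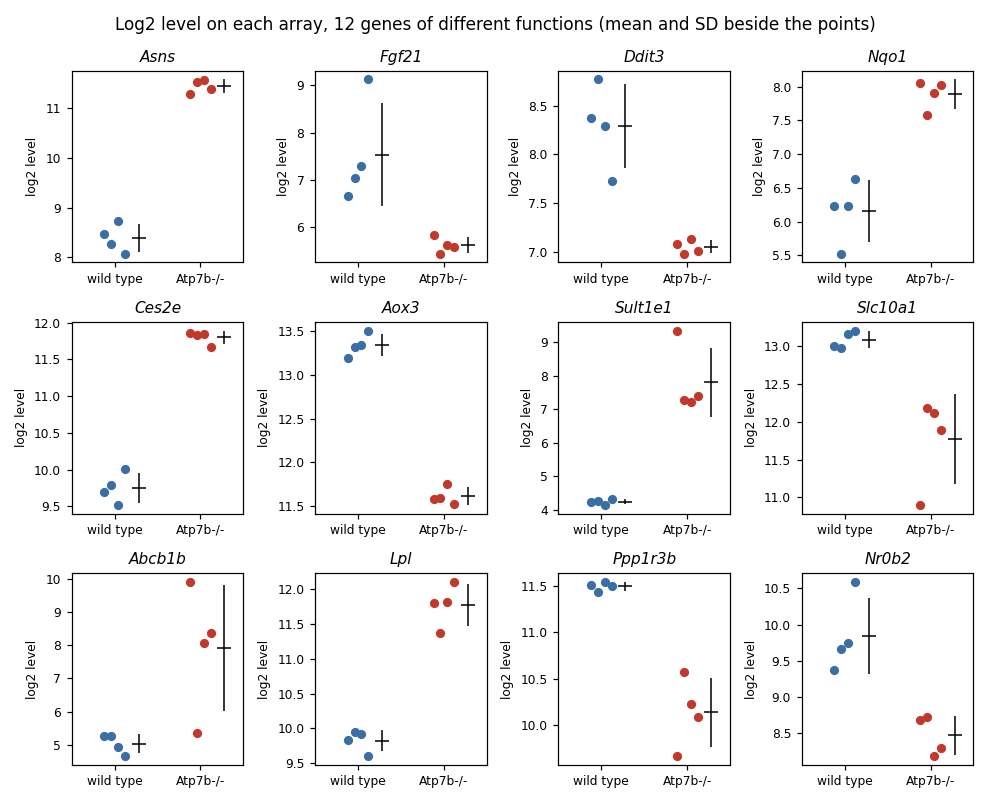
Log2 levels of 12 genes of stress, detoxification, transport and metabolism in each of the 4 wild type and 4 Atp7b-/- arrays, 1 point per array, with the group mean and SD beside the points. Asns, Ces2e, Sult1e1 and Lpl are higher in each Atp7b-/- array, and Aox3, Slc10a1 and Ppp1r3b lower.

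Sterol and lipid genes changed in places, not as blocks. Of 17 cholesterol synthesis genes, 3 rose and 0 fell (17.6 percent called, against 24.6 percent of all genes). Without wild type replicate 4 the rises were 5, and without Atp7b-/- replicate 3 there was 1 fall. Hmgcs1, the first committed step, was at 12.36, 12.19, 12.77 and 13.19 in wild type and at 12.94, 13.77, 13.68 and 13.73 in Atp7b-/-. It rose by 0.90 although replicate 1 of the mutant lay within the wild type range. Dhcr7, the last step, rose by 0.83, and Sqle differed by 0.15 and was not called. Among 16 genes of sterol uptake and control, 4 fell and 0 rose, with 1 rise without Atp7b-/- replicate 1 or wild type replicate 4. The falls included the cholesterol exporter Abca1, lower by 0.38 (0.65 averaged over its probe sets, both falls). Lcat, which esterifies plasma cholesterol, fell by 0.43.

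In fatty acid synthesis, 3 of 18 genes rose and 4 fell. There were 5 rises without Atp7b-/- replicate 1, and 1 fall without Atp7b-/- replicate 4 or wild type replicates 1 or 4. The elongases moved apart. Elovl2, which extends polyunsaturated fatty acids, fell by 1.00, and Elovl1, which extends saturated chains, rose by 0.88. The desaturase Scd2 rose by 1.03 (0.47 averaged over its probe sets), while Scd1 and Fasn, the main lipogenic enzymes of liver, differed by 0.15 and 0.21 and did not pass the test. In fatty acid oxidation, 4 of 19 genes fell and 1 rose (26.3 percent called, against 24.6 percent of all genes). The falls were 2 without replicates 2 or 4 of either group and ran from 2 to 7 over the scalings. The rises were 0 without Atp7b-/- replicates 1, 2 or 4 or wild type replicates 1 or 3, 2 without wild type replicate 2 and 3 without wild type replicate 4. Etfdh, which passes electrons from this pathway to the respiratory chain, fell by 0.53 and the trifunctional protein subunit Hadhb by 0.50 (0.29 averaged over its probe sets), and Cpt1a, the entry step, differed by -0.41 (adjusted p = 0.0716, limma). Without Atp7b-/- replicate 1, Cpt1a was called lower at -0.56 (adjusted p = 0.00896, limma). Crot, the peroxisomal carnitine transferase, fell by 0.98 (0.61 averaged over its probe sets).

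Of 21 genes of triglyceride and lipid droplets, 4 rose and 3 fell. Lpin1, a phosphatidate phosphatase, was at 7.22, 8.07, 8.36 and 8.67 in wild type and at 10.28, 9.11, 9.92 and 9.50 in Atp7b-/-. It rose by 1.62 with no overlap (adjusted p = 0.002, limma). The droplet coat proteins parted, with Plin2 lower by 0.61 and Plin3 higher by 0.64. G0s2, an inhibitor of lipolysis, fell by 1.07, and it lost its call without Atp7b-/- replicates 1 or 4 or wild type replicates 2 or 3, where the difference was -1.05 to -0.82, and with a trended, robust variance (adjusted p = 0.0524, limma).

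Lipoprotein genes had 2 higher and 2 lower of 18 (22.2 percent called, against 24.6 percent of all genes). Lpl, the lipase that releases fatty acids from lipoproteins, read 9.83, 9.95, 9.92 and 9.60 in wild type and 11.81, 11.38, 11.82 and 12.11 in Atp7b-/-. The groups lay more than 1 log2 unit apart, and it rose by 1.95 ± 0.15 (SE; adjusted p = 9.92e-07, limma). Apoc2, the protein that activates this lipase, rose by 0.81 (adjusted p = 6.42e-06, limma). Apoa5, a further modulator of the lipase, fell by 0.37 and the phospholipid transfer protein Pltp by 0.62. Apob and Mttp, on which particle assembly depends, differed by -0.17 and 0.01 and did not pass the test. Averaged over its 2 probe sets, Apob was called lower, at -0.50 (adjusted p = 9.15e-05, limma).

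Glucose handling changed most at glycogen targeting. Ppp1r3b, the liver subunit that brings protein phosphatase to glycogen, was at 11.51, 11.44, 11.55 and 11.50 in wild type and at 9.66, 10.57, 10.22 and 10.08 in Atp7b-/-. Wild type varied little, the mutant arrays were all below it, and the fall was 1.37 ± 0.25 (SE; adjusted p = 0.00143, limma). Ppp1r3c, a second targeting subunit, fell by 0.88 and lost its call without Atp7b-/- replicate 1 or wild type replicate 3, with differences of -0.80 to -0.78. Gyg, the primer protein of glycogen, rose by 1.07. In all, 3 of 15 genes of glucose production and glycogen rose and 3 fell. Pck1, a control point of glucose production, ranged from 10.51 to 12.01 in wild type and from 10.39 to 12.11 in Atp7b-/- and was not called.

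Of 18 glycolysis genes, 3 rose and 3 fell. The glucose carrier Slc2a1 rose by 0.95 (0.38 without probe sets of shared sequence), hexokinase 2 (Hk2) fell by 0.54, and the liver pyruvate kinase Pklr differed by -0.49 and was not called. In the pentose phosphate pathway Pgd, a source of NADPH, read 10.01, 9.69, 10.20 and 10.22 in wild type and 11.09, 11.20, 11.20 and 11.19 in Atp7b-/-. Its groups were well apart, with a rise of 1.14 (adjusted p = 5.26e-05, limma). The citric acid cycle and its regulators had 6 higher and 1 lower of 22, and 0 lower without Atp7b-/- replicates 2, 3 or 4 or wild type replicates 1, 2 or 3. Pdk4, the kinase that shuts pyruvate dehydrogenase, rose by 1.17 and malate dehydrogenase Mdh2 by 0.73, and citrate synthase Cs differed by 0.18 and was not called.

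Of 24 genes of methionine and one-carbon metabolism, 7 rose and 3 fell. Nnmt, which spends methyl groups on nicotinamide, was at 10.85, 10.94, 11.08 and 9.66 in wild type and at 12.19, 11.72, 12.19 and 12.01 in Atp7b-/-, a rise of 1.39 (adjusted p = 0.00446, limma) with no overlap. Mat1a, which makes the methyl donor S-adenosylmethionine, rose by 0.68, Cth, which makes cysteine from cystathionine, by 0.80, and the mitochondrial enzyme Mthfd1l by 1.11. Heme genes had 3 higher and 0 lower of 11 (27.3 percent called, against 24.6 percent of all genes). There was 1 lower without Atp7b-/- replicates 1 or 3 or wild type replicate 1. Alad, the second step of heme synthesis, rose by 0.94, but its other probe set differed by -0.40 and their mean, 0.27, was not called (adjusted p = 0.196, limma). Blvrb, a biliverdin reductase, rose by 0.74. Alas1, the first step, and the heme oxygenase Hmox1 differed by -0.53 and -0.23 and were not called. Without Atp7b-/- replicate 1, Hmox1 was called lower at -0.48 (adjusted p = 0.00261, limma). Alas1 was called lower without Atp7b-/- replicate 3, at -0.65 (adjusted p = 0.0266, limma).

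Receptors and factors that control liver genes changed in both directions. Of 34 nuclear receptors, 5 rose and 6 fell. Nr0b2 (SHP), a repressor of bile acid synthesis, read 9.37, 9.67, 9.75 and 10.59 in wild type and 8.68, 8.73, 8.19 and 8.30 in Atp7b-/-. Each mutant array was below each wild type array, a fall of 1.37 ± 0.26 (SE; adjusted p = 0.00197, limma). Rxra, the partner of many of these receptors, fell by 0.59 and Ppara, the fatty acid receptor, by 0.38. The estrogen receptor Esr1 rose by 1.06 and the retinoic acid receptor Rarb by 0.84, and the xenobiotic receptor Nr1i2 (PXR) by 0.40 (0.26 after quantile normalization over genes alone). The bile acid receptor Nr1h4 (FXR) differed by 0.25 and was not called.

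Among 18 hepatocyte transcription factors 1 rose and 2 fell (16.7 percent called, against 24.6 percent of all genes). There was 1 fall without Atp7b-/- replicate 4 or wild type replicate 1. Foxa3 fell by 0.64 (adjusted p = 0.00219, limma). Hnf4a, the central factor of hepatocyte identity, fell by 0.25 and lost its call without Atp7b-/- replicates 1 or 4 or wild type replicate 1 (differences of -0.24 to -0.22), after median centring (adjusted p = 0.0506, limma) and in another probe set (-0.08). The change in Hnf4a was small beside those of the genes above.

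Growth factor receptors had 7 lower and 3 higher of 19. The 7 probe sets of Egfr, the receptor of epidermal growth factor, ran from -2.90 to 0.24. Of these 5 were lower and 2 higher, and the one with the highest signal read 12.01, 13.07, 12.89 and 12.03 in wild type and 9.76, 9.80, 9.89 and 8.93 in Atp7b-/-. The mean over them fell by 1.22. The insulin receptor Insr fell by 0.51 and the TGF-beta receptor Tgfbr2 rose by 1.06 (0.37 averaged over its probe sets). Among 19 ligands 3 rose and 5 fell, with 1 rise without Atp7b-/- replicates 2 or 4 or wild type replicate 1. Pdgfa rose by 1.25 and the activin subunit Inhba fell by 1.07 (0.67 averaged over its probe sets). Nt5e (CD73), which makes adenosine outside the cell, rose by 1.56 (0.67 averaged over its probe sets).

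Cytoskeleton and junction genes gave more rises than falls. Of 29 tubulin, keratin and actin genes 9 rose and 2 fell, with 1 fall without Atp7b-/- replicates 1 or 4 or wild type replicates 1 or 3. Krt8 and Krt18, the keratin pair of hepatocytes, rose together. Krt8 was at 11.65, 11.50, 11.78 and 11.99 in wild type and at 12.91, 12.44, 12.47 and 12.92 in Atp7b-/-, a rise of 0.95 (adjusted p = 0.000446, limma). Krt18 rose by 0.77, Krt23 by 1.35 and the tubulin Tubb4b by 1.19 (0.36 averaged over its probe sets). Of 18 junction genes 6 rose and 0 fell (2 fell averaged over probe sets), and 3 rose without Atp7b-/- replicate 4 or wild type replicate 1. Ocln, a tight junction protein, rose by 1.08, E-cadherin (Cdh1) by 0.62 and Cldn2, a pore-forming claudin, by 0.55 (0.35 averaged over its probe sets).

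DNA repair genes had 14 higher and 4 lower of 31, with 2 lower without Atp7b-/- replicates 2 or 4 or wild type replicates 1, 2 or 3. Averaged over the list, the mutant arrays stood 0.30 to 0.52 above the wild type mean. Many of these genes are also made in dividing cells, and this group moved beside the cell cycle list, in which 29 of 53 genes rose and 4 fell (2 without Atp7b-/- replicate 4). The part of cell division in it was not tested.

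Chek2, a checkpoint kinase, read 5.66, 5.57, 6.05 and 5.93 in wild type and 7.85, 7.78, 7.81 and 7.94 in Atp7b-/-, with more than 1 log2 unit between the groups and a rise of 2.04 (adjusted p = 2.24e-08, limma). Atr, the kinase of stalled replication, rose by 1.25, Brca1, of homologous recombination, by 2.46 (1.23 averaged over its probe sets), the helicase Blm by 1.04 and the bypass polymerase Polk by 1.67. The falls included Ung, which removes uracil from DNA, by 1.16 and Ddb2, which finds ultraviolet damage, by 0.54. Of 22 apoptosis genes 3 rose and 2 fell (22.7 percent called, against 24.6 percent of all genes). Apaf1, the core of the apoptosome, rose by 1.76, with Atp7b-/- arrays at 7.72, 7.11, 7.05 and 7.43 and no overlap. The death receptor Fas rose by 0.53, its effector Casp8 fell by 0.65, and the survival genes Bcl2 and Mcl1 differed by -0.07 and -0.13 and were not called.

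Lists for protein and RNA synthesis had calls in both directions. Mitochondrial ribosomal proteins in the chosen list had 8 higher and 0 lower of 30 (26.7 percent called). Over the scalings 5 to 12 were higher, and 1 was lower without Atp7b-/- replicate 1. Mrps28 rose by 0.63. Of 18 tRNA synthetases 4 rose and 0 fell (22.2 percent called, against 24.6 percent of all genes). The rises numbered 2 to 5 over the scalings, and Gars rose by 0.56. Ribosome assembly genes had 3 higher and 5 lower of 26, with 3 lower without Atp7b-/- replicate 2 or wild type replicate 3 and 4 to 9 lower over the scalings. Among proteins of small nucleolar particles, Nop56 of the box C/D kind fell by 0.81 and Nhp2 of the box H/ACA kind rose by 0.79. Splicing factors had 3 higher and 3 lower of 26 (23.1 percent called). There was 1 lower without Atp7b-/- replicates 1 or 4 or wild type replicate 2.

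Clock and zonation genes showed no common direction. Of 17 clock genes 2 rose and 3 fell. There was 1 rise without Atp7b-/- replicates 2, 3 or 4 or wild type replicate 2, and 1 fall without Atp7b-/- replicate 3 or wild type replicates 2 or 3. The repressor Cry2 rose by 0.71, and the core genes Arntl and Per2 differed by 0.13 and -0.03 and were not called, and the time of day of sampling is not known here. Of 16 pericentral genes 3 rose and 2 fell; the falls were 1 without any single Atp7b-/- array or wild type replicate 3 and 0 without wild type replicates 1 or 2. Glul, glutamine synthetase of the last hepatocytes before the central vein, read 12.09, 12.40, 12.31 and 12.39 in wild type and 10.53, 12.14, 11.89 and 11.96 in Atp7b-/-, and the difference of -0.67 was not called (adjusted p = 0.0792, limma). Glul was called lower averaged over its probe sets, at -1.02 (adjusted p = 0.0124, limma), and without Atp7b-/- replicate 1, at -0.30 (adjusted p = 0.0434, limma). The ammonia channel Rhbg of the same cells rose by 0.52. Of 12 periportal genes 4 rose and 2 fell, with 2 rises without Atp7b-/- replicate 4 or wild type replicates 1 or 2. Hsd17b6, a steroid and retinol dehydrogenase, fell by 1.61 (0.82 averaged over its probe sets), and Cps1 of the urea cycle differed by -0.02 and was not called.

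Secreted defence proteins were called in both directions. Of 24 acute phase genes 3 rose and 3 fell. There was 1 rise without Atp7b-/- replicate 3 or wild type replicates 1 or 4, and 1 fall without Atp7b-/- replicate 4 or wild type replicates 2 or 3, and 5 falls without wild type replicate 4. The inhibitor chain Itih3 fell by 0.86 (adjusted p = 1.43e-06, limma) and the protease inhibitor Serpina3n rose by 0.71. Saa3, a serum amyloid gene, ranged from 8.13 to 12.09 in wild type and from 7.56 to 9.23 in Atp7b-/- and was not called. Without wild type replicate 4 it was called lower, at -2.25 (adjusted p = 0.0138, limma). Of 37 complement and coagulation genes 6 rose and 6 fell, with 2 rises without Atp7b-/- replicate 4 or wild type replicate 1, and 3 falls without Atp7b-/- replicate 2 or wild type replicates 2 or 3. Mbl2, a mannose-binding lectin, rose by 1.32, and C8b, of the membrane attack complex, fell by 0.66.

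Of 19 chemokines 3 rose and 4 fell. There was 1 rise without Atp7b-/- replicate 4, and the falls were 2 without that array and 1 without wild type replicates 1 or 2. Ccl9 rose by 1.02 with no overlap. Of 31 lysosome and autophagy genes 9 rose and 5 fell, and 5 rose without Atp7b-/- replicate 1 or wild type replicates 1 or 3. Ctsc, a protease that activates granule enzymes of white blood cells, was at 10.84, 11.39, 10.89 and 11.33 in wild type and at 9.79, 9.76, 9.35 and 9.74 in Atp7b-/-, a fall of 1.45 with no overlap (adjusted p = 6.65e-05, limma). Hexa, which cleaves gangliosides, and the protease Ctsd rose by 0.90 and 0.55.

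Markers of the cell types a liver sample can hold were read beside these changes. In whole tissue, fewer cells of a type and less RNA per cell cannot be told apart. Of 20 macrophage markers 9 fell and 0 rose, all with overlapping arrays, and their mean per array ran from -0.43 to 0.36 in wild type and from -0.74 to 0.05 in Atp7b-/-. Replicate 1 of the mutant and replicate 4 of wild type lay out of line with their groups. The falls were 14 without either of these arrays, 1 without Atp7b-/- replicate 4, 2 without replicate 2, 5 without replicate 3, and 5, 4 and 3 without wild type replicates 1, 2 and 3. Adgre1 (F4/80) was lower by 0.71. The part of macrophage RNA in the falls of lysosomal and complement genes was not tested.

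Of 22 endothelial markers 2 rose and 4 fell (27.3 percent called, against 24.6 percent of all genes). The falls were 2 without Atp7b-/- replicates 3 or 4 or wild type replicate 1. The sinusoidal lectins Clec4g and Lyve1 fell by 0.82 and 0.79, while the angiopoietin receptor Tek rose by 1.54. Tek read 6.28, 6.75, 6.50 and 6.87 in wild type and 8.95, 7.82, 8.07 and 7.72 in Atp7b-/-, with no overlap. Bile duct markers had 2 higher and 1 lower of 12, and 4 higher without Atp7b-/- replicate 4. Cd24a rose by 1.43 (0.90 without probe sets of shared sequence) and Krt19 by 0.47, and the defining genes Sox9 and Epcam differed by -0.46 and -0.10 and were not called. Averaged over its probe sets, Sox9 was called lower at -0.41 (adjusted p = 0.0276, limma). Of 22 stellate cell and matrix genes 0 passed the test in limma, with 4 lower at an unadjusted p under 0.05 (1 called lower without Atp7b-/- replicates 1 or 3 and 3 lower without wild type replicate 4). Col1a1 and Acta2, defining genes of scar-forming cells, differed by -0.13 and 0.22. Markers of pancreatic cells, of which 13 were measured, ran from -0.14 to 0.10 per array in wild type and from -0.21 to 0.05 in Atp7b-/-, with 0 called by limma and 0 at an unadjusted p under 0.05.

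Genes known to be higher in livers of males were lower. Of 14 measured, 10 fell and 0 rose, with a median difference of -0.85, and the mean per array was -2.11 to -1.31 in Atp7b-/- against -0.07 to 0.06 in wild type. Beyond Moxd1 (-6.56) and Ugt2b38 (-5.84) the list included Susd4 at -0.92 and Cspg5 at -0.76. Of 14 genes known to be higher in females 3 rose and 0 fell (21.4 percent called, against 24.6 percent of all genes). The rises were Slc22a27 by 1.74, Nipal1 by 1.58 and Atp6v0d2 by 1.30. The sex of the mice is not given and was not checked from the arrays, so sex and genotype were not told apart for these genes. Several genes above (Slco1a1, Cyp7b1, Sult2a8) are on the male list.

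**Figure D4:**
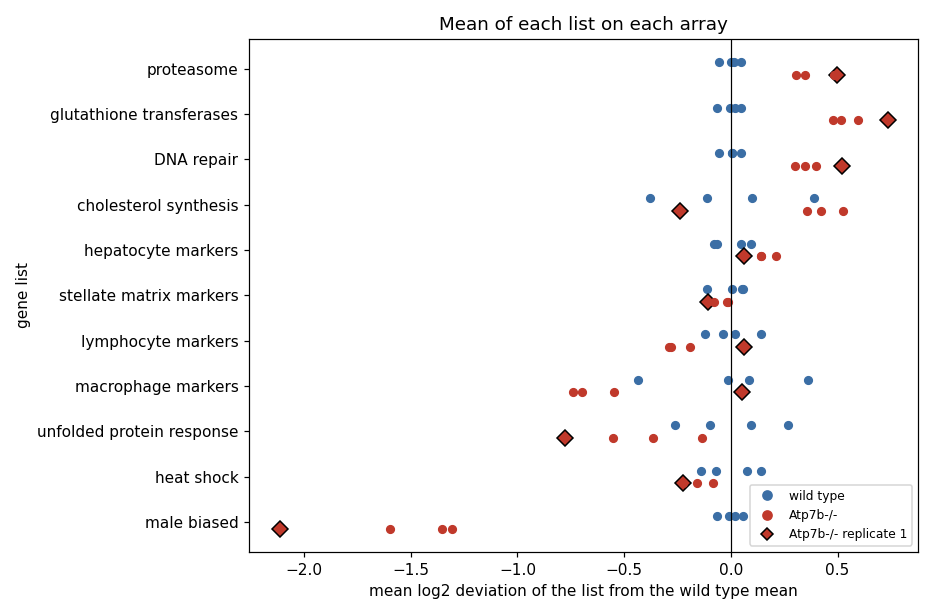
Mean log2 deviation of each gene list from its wild type mean in each of the 8 arrays, wild type in blue and Atp7b-/- in red, with replicate 1 of Atp7b-/- as a diamond. The proteasome, glutathione transferase and DNA repair lists lie higher in each Atp7b-/- array and the male-biased list lower. The other lists, among them the unfolded protein response and macrophage lists, overlap.

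The genes with the largest rises outside the known groups, among those the naming rule allows, follow with their levels in each array. Myom2, a structural protein of muscle, stood at 3.52, 3.40, 3.97 and 3.30 in wild type and at 8.95, 9.63, 9.78 and 9.18 in Atp7b-/-. The wild type values are under the lowest lower quartile of an array, 4.13, and may be background, so that the size of the rise is not settled. It rose by 5.83 ± 0.19 (SE; adjusted p = 3.44e-10, limma). Its 4 probe sets did not move alike, with 3 higher, differences of -0.20 to 5.83 and a mean of 3.01. Ddias, a gene of DNA damage and cell survival, was at 4.83, 4.58, 4.93 and 4.32 in wild type and at 9.67, 9.13, 9.35 and 9.34 in Atp7b-/-, a rise of 4.71, and both of its probe sets rose.

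Spink1, an inhibitor of trypsin, read 4.63, 4.57, 5.01 and 4.67 in wild type and 11.42, 8.45, 8.28 and 9.19 in Atp7b-/-. The rise of 4.61 was 3.92 without replicate 1 of the mutant. Pancreatic acinar cells also make Spink1, and the 13 pancreatic markers differed by -0.49 to 0.52. Wfdc12, a member of another family of protease inhibitors, was at 6.27, 6.21, 6.09 and 5.91 in wild type and at 11.04, 10.29, 9.91 and 10.11 in Atp7b-/-, a rise of 4.21 (adjusted p = 3.57e-06, limma).

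Several of the largest rises were in genes best known from other organs. The glutamate receptor subunit Gria3 read 5.42, 4.14, 5.33 and 5.13 in wild type and 9.26, 9.26, 9.26 and 8.88 in Atp7b-/-, a rise of 4.16. Tafa2, a secreted protein of the brain, was at 4.14, 3.68, 3.34 and 3.43 in wild type and at 7.22 to 8.16 in Atp7b-/-, a rise of 4.09 (adjusted p = 2.09e-07, limma). Smoc2, a calcium-binding matrix protein, rose by 3.99, with 5.86 to 6.13 in wild type and 9.79 to 10.26 in Atp7b-/-. Cplane1, a protein of cilia, rose by 5.09 in the probe set used, but its 7 probe sets ran from -0.23 to 5.98, with 4 higher and 3 lower and a mean of 2.10.

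Among the largest falls, Pgp, the phosphatase of phosphoglycolate, had the least spread, at 9.01, 8.96, 8.98 and 9.18 in wild type and 7.02, 6.76, 6.87 and 6.62 in Atp7b-/-. It fell by 2.21 ± 0.09 (SE; adjusted p = 2.81e-09, limma). Dio1, which activates thyroid hormone, fell by 2.55, with 10.36 to 11.52 in wild type and 8.05 to 8.51 in Atp7b-/-. Adh6-ps1, listed as an alcohol dehydrogenase pseudogene, fell by 3.10 with wild type replicate 4 at 6.80 and the other 3 wild type arrays at 8.91 to 9.17. Probes of a pseudogene may also bind its relatives.

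Further falls spanned unrelated functions. Dct, an enzyme of melanin synthesis, fell by 2.29, with replicate 1 of the mutant at 5.38 and the others at 7.57 to 8.35. The cartilage protein Cnmd fell by 2.23 and the zinc finger gene Zfp9 by 2.00. The growth arrest gene Gas1 fell by 1.78 and the scavenger receptor Colec12 by 1.77. Cadps2, of vesicle release, fell by 1.70. Inmt, which methylates indoles, also fell by 1.70, and fell by 1.13 without replicate 1 of the mutant.

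**Figure D5:**
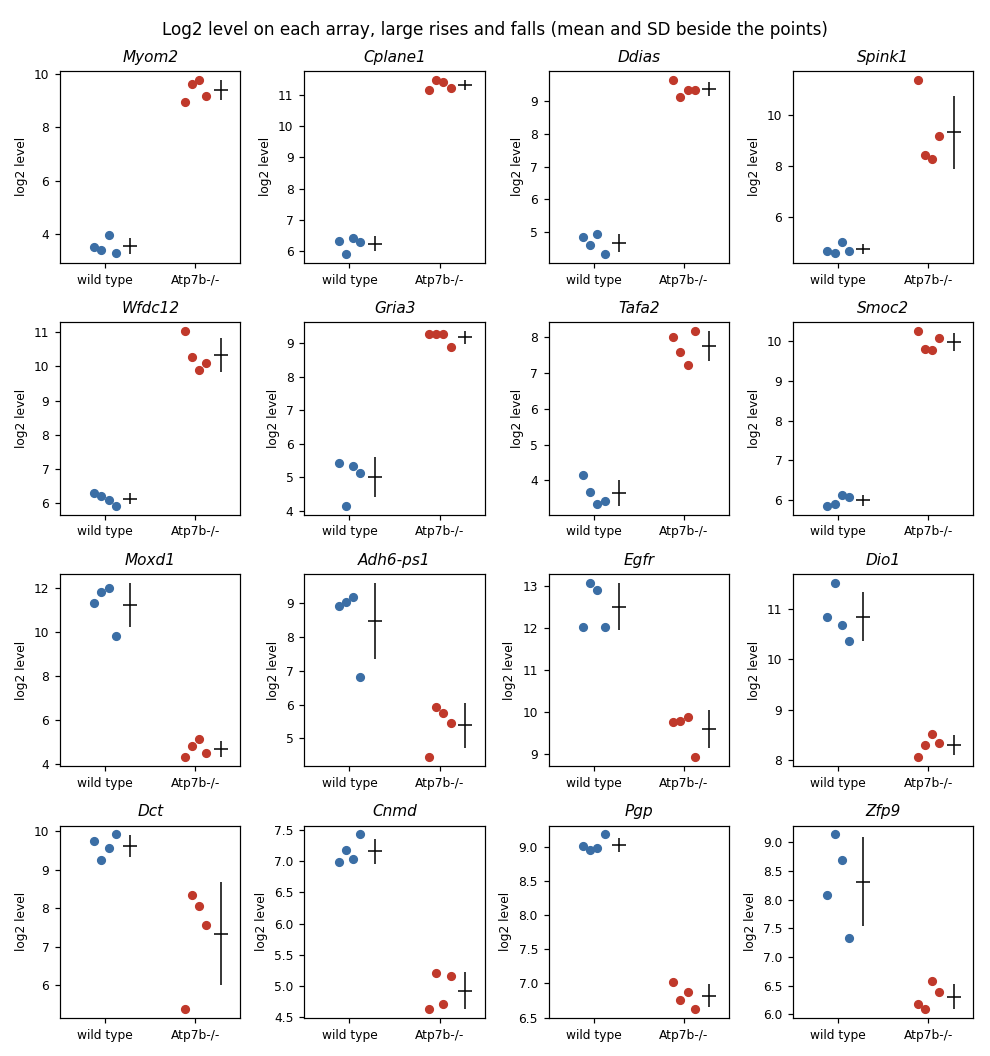
Log2 levels in the 4 wild type and 4 Atp7b-/- arrays for genes with large rises and falls outside the known groups, 1 point per array, with the group mean and SD beside the points. The risen genes lie between 3.30 and 6.41 in wild type and between 7.22 and 11.50 in Atp7b-/-.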

How the data were processed

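RNA of mouse liver was extracted with Trizol and RNeasy and measured on 12 Affymetrix GeneChip mouse arrays, 4 per group, per the labels' protocols. The authors' deposited log2 values (2.22 to 15.2, the scale taken from this range) had array medians of 5.63 to 5.71, and the normalization method is not given in the sources. They were used unscaled. Of 45101 probe sets, 64 controls were left out, and 34945 are listed with 1 gene symbol, 932 with several and 9160 with none in GEO's platform annotation. Only the first kind was used, and 9010 of the 18193 genes had several probe sets. Symbols were updated through RefSeq.

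One fit of 3 group means over 12 arrays was made with limma 3.58.1 in R 4.3.3 (lmFit, contrasts.fit and eBayes), and Atp7b-/- was compared with wild type. A gene was called changed, higher (rose) or lower (fell), at a Benjamini-Hochberg adjusted p under 0.05 over the 18193 genes. The fit was checked on simulated data. With 4 arrays a group, array number limits precision. Tables were made with Python 3.11.15 and pandas 2.3.3 and figures with matplotlib 3.10.9.

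The members, the gene lists and the alternatives were chosen with earlier results of these data known, so counts over a list describe it and are not a test of it. The naming rule took up to 20 rises and 20 falls of greatest size from called genes with no overlap between arrays, a higher mean above that group's median gene, and no clone or predicted symbol. Members of the lists were added, with preference for 4 in each direction with the smallest adjusted p and for the rate-limiting or defining member. The text uses a part of these, picked after their values were seen, and p53, cell cycle and metallothionein genes are given as counts. The 20 alternatives covered scaling, the choice of probe sets, the variance model, array weights, a minimum change, dim genes, the zinc arrays, a replicate block and the omission of single arrays. Scaling over genes alone was added after seeing the data. Probe sets of shared sequence are those marked x, s or a by the maker.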

Additional observations from a re-analysis of the deposited data

Results flagged for a closer look

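For 217 genes named in the text, each group of 4 arrays was searched for an array far from the other 3, by Dixon's test on the gap over the range. Of 434 groups, 38 had such an array, 24 in Atp7b-/- and 14 in wild type, and chance alone gives about 1 in 20 groups. Replicate 1 of Atp7b-/- accounted for 18 of them. Values below are log2 levels with the mean of the other 3 arrays in parentheses.

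Replicate 1 of Atp7b-/- was high for Sult1e1 at 9.35 (7.30), Hmox1 at 6.78 (5.77), Krt23 at 6.45 (5.16) and Saa3 at 9.23 (7.65). It was low for the chaperone and stress genes Xbp1 at 12.43 (13.03), Hsp90b1 at 12.61 (13.08) and Calr at 13.28 (13.42), and for the sterol synthesis genes Hmgcs1 at 12.94 (13.72), Dhcr7 at 10.89 (11.55) and Sqle at 10.40 (11.10). It was also low for Aox1 at 11.75 (12.04), Cyp2c29 at 10.28 (12.44), Pgd at 11.09 (11.20), Arntl at 8.15 (9.01) and Glul at 10.53. The same held for Sox9 at 5.24 (6.36), Gas1 at 6.92 (7.47) and Inmt at 9.48 (11.75).

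Replicate 3 of Atp7b-/- was high for Lyve1 at 6.02 (5.66) and low for Mcl1 at 10.87 (11.19) and Ctsc at 9.35 (9.77). Replicate 4 was low for Ces2e at 11.67 (11.85), Egfr at 8.93 (9.82) and Gria3 at 8.88 (9.26).

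In wild type, replicate 1 was low for Hsp90aa1 at 12.16 (12.61) and Alad at 10.96 (11.55). Replicate 2 was high for Hadhb at 12.06 (11.77) and Etfdh at 12.06 (11.87) and low for Slco1a1 at 12.77 (12.98). Replicate 3 was high for Psmd6 at 11.52 (11.35), Calr at 13.43 (13.32) and Tgfbr2 at 8.56 (8.36). Replicate 4 was high for Psmb4 at 12.10 (12.01), Bcl2 at 6.12 (5.96) and Hsd17b6 at 11.38 (10.85), and low for Cyp7a1 at 8.49 (10.39), Nnmt at 9.66 (10.96) and Adh6-ps1 at 6.80 (9.04).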

How the results depend on the processing

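Of 171 called genes named in the text, 163 stayed called in the same direction under each alternative in which they were measured other than the minimum change, and 8 lost the call under at least 1. With a minimum change of 0.5 log2 units built into the test, 555 genes were called (484 higher, 71 lower). Of the 171 named genes, 63 kept their call in that test and 108 lost it. Centring each array on its median over the genes alone gave 3754 lower genes. Leaving out 1 array gave 3292 to 4449 called genes, with 2072 to 2606 higher and 1220 to 1843 lower; the lowest counts came without Atp7b-/- replicate 4, and the cause was not tested. Against the direction as reported, Pdia6 was -0.48 averaged over its probe sets and Alad was -0.40 without probe sets of shared sequence. With the replicate number as a block (replicate block), 4449 genes were called. Same-numbered arrays, from replicate 1 to 4, deviated together with correlations of 0.18, -0.03, -0.06 and 0.14. Arrays of unlike number ran from -0.19 to 0.09, so that replicates 1 and 4 lay above that range. The labels do not say whether the numbers pair arrays, and this was not tested. The 8 arrays alone called 3884 genes. Signal over background limits genes near the lower quartile of the arrays. In lists with 0 called in 1 direction, members at an unadjusted p under 0.05 that way were 1 each for cholesterol synthesis, heme, the unfolded protein response, tRNA synthetases and mitochondrial ribosomes, 3 for sterol control, and 0 for proteasome, glutathione transferases, junctions, macrophage, male-biased and female-biased genes.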
